A study of Mus musculus with 2 samples.

Results

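Transcripts of 8 molecules through which antigen-presenting cells stimulate or restrain T cells were followed across the cells of the ischemic mouse brain: Cd80, Cd86, Icosl, Cd40, Cd83, Cd274, Pdcd1lg2 and Lag3. They were chosen by symbol, as 8 of the 31053 genes listed in the files, and all 8 had UMIs in both libraries. A UMI, or unique molecular identifier, marks 1 captured transcript. After stroke, the cells were taken from the brain of mice aged 6 to 8 weeks. The mice were Foxp3Egfp, a strain whose name denotes a green fluorescent reporter at the regulatory T cell gene Foxp3. The cells were sorted as CD45+CD11b+CD3-F4/80+, that is, as leukocytes with myeloid and macrophage surface proteins and without the T cell protein CD3. There was 1 group of 2 libraries, called replicate 1 and replicate 2, and no control without stroke, so each comparison is between kinds of cells within the libraries. Every cell shares the reporter strain, the stroke and the sort. The labels say that barcoded cDNA of stroke mice was pooled for sequencing and do not say that the libraries are separate animals, so p-values measure only the spread between these libraries, which may be technical.

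T cells need a second signal beside antigen, and most of these molecules deliver it or block it. CD80 and CD86, products of Cd80 and Cd86, bind CD28 on T cells to activate them and bind CTLA-4 to restrain them, and ICOS ligand, encoded by Icosl, engages the related receptor ICOS. CD40 is not a ligand but a receptor on the presenting cell, triggered by CD40 ligand on T cells. CD83 stabilizes MHC class II and CD86 at the surface of mature dendritic cells. Cd274 and Pdcd1lg2 encode PD-L1 and PD-L2, the ligands of the inhibitory receptor PD-1. Lag3 is also not a ligand: it encodes an inhibitory receptor of activated T cells and NK cells that binds MHC class II.

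The ligands of PD-1 are neighbours in the genome. Cd274 (ENSMUSG00000016496) lies on GRCm38 chromosome 19, 29367455 to 29388095, and Pdcd1lg2 (ENSMUSG00000016498) lies 22823 bases further on, at 29410919 to 29471161, both on the plus strand. The 250 bases before each gene's start in RefSeq are shown because the levels of the genes ran together across clusters of cells (r = 0.70 over 17 clusters, a description), and the windows differ in motif content. Sequences are from RefSeq, build GRCm38.p6, 5′ to 3′, and capitals mark a match to the kappaB motif of NF-kB factors, whose first base lies 244 bases before the start of Pdcd1lg2. RefSeq's start of Cd274 lies slightly before the one given above, which is from GENCODE, so the Cd274 window ends short of the latter.
Cd274, chr19:29367188-29367437, plus strand: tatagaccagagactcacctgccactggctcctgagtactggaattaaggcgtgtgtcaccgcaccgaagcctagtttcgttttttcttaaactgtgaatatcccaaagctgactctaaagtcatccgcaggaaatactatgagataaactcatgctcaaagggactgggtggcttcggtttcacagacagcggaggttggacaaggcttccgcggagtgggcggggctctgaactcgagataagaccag
Pdcd1lg2, chr19:29410669-29410918, plus strand: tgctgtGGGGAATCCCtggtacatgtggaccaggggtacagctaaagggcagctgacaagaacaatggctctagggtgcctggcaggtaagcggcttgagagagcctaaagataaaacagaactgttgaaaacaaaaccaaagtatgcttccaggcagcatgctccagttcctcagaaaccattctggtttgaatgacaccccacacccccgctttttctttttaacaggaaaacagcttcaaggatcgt
Both strands were searched for kappaB, TTCNNNGAA (STAT factors), GAAA, any 2 bases and GAAA again (interferon regulatory factors) and TGANTCA (AP-1), and a match of one may overlap a match of another. Of the 32851 RefSeq promoters, 3.90%, 7.02%, 2.98% and 6.75% held a match in the same 250 bases, in that order. Entries were matched for 4 of the 8 genes. Cd274 and Icosl held none of the motifs, Pdcd1lg2 held 1 kappaB match and Cd80 held 1 TGANTCA match. A match describes letters in the window and shows no binding.

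The other genes lie apart. Cd80 (ENSMUSG00000075122, 38455561 to 38496335, plus strand) and Cd86 (ENSMUSG00000022901, 36603869 to 36666081, minus strand) are both on chromosome 16. Icosl (ENSMUSG00000000732) is on chromosome 10, 78069302 to 78083913, plus strand, and Cd40 (ENSMUSG00000017652) on chromosome 2, 165055627 to 165072948, plus strand. Cd83 (ENSMUSG00000015396) is on chromosome 13, 43784775 to 43803132, plus strand, and Lag3 (ENSMUSG00000030124) on chromosome 6, 124904361 to 124911705, minus strand. The annotation places the antisense genes AC119228.1 over Cd274 and A930007I19Rik over Pdcd1lg2. Whether the counting used strand is not stated in the sources at hand, so reads of these antisense genes cannot be told apart from reads of the ligands.

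The libraries held 101893367 and 62850768 UMIs, and after filters and removal of likely doublets 13624 and 7409 cells remained, with medians of 4975.5 and 5612 UMIs. They shared 25 cell barcodes. Scrublet marked doublets in replicate 1 only, so in replicate 2 the 501 cells with the highest scores were removed instead. Cells were clustered without the 8 genes, and clusters were named by marker genes. Microglia-like cells, which resemble the resident macrophages of the brain, numbered 6090 and 4787 in replicates 1 and 2, the order used throughout. Macrophage-like cells, which resemble macrophages derived from blood monocytes, numbered 4478 and 593, or 32.9% and 8.00% of the cells, although the labels call all of the sorted cells macrophages. There were 435 and 445 monocyte-like, 710 and 571 neutrophil-like, 620 and 224 cycling-like, 137 and 96 T or NK cell-like and 162 and 159 dendritic cell-like cells. The neutrophil-like class was mixed, with microglia markers at 41507 and 31529 CPM, and takes part in no comparison of its own. Levels are given as CPM, counts per 1000000, here the UMIs of a gene per 1000000 UMIs of the summed cells, and are compared within a gene only. Free RNA, taken from barcodes under 100 UMIs, gives the level a gene would have if every UMI were leaked. Leakage adds that level times the leaked share of a cell's UMIs, and this share was not measured.

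Cd80 and Cd40 were high in monocyte-like and dendritic cell-like cells and scarce in microglia-like cells. Cd80 stood at 27.2 and 23.4 CPM in monocyte-like, 20.01 and 18.9 in dendritic cell-like, 3.92 and 3.74 in microglia-like and 2.77 and 5.66 in macrophage-like cells, against 5.40 and 8.68 CPM in free RNA. The monocyte-like and dendritic cell-like values lay above those of microglia-like and macrophage-like cells in both libraries, while the values of the last 2 overlapped. The mixed neutrophil-like class, at 12.1 and 26.7 CPM, was above both the monocyte-like and the dendritic cell-like level in replicate 2 and below both in replicate 1. Cd40 stood at 19.0 and 18.6 CPM in monocyte-like, 11.8 and 17.2 in dendritic cell-like, 3.80 and 6.60 in macrophage-like and 0.697 and 0.444 in microglia-like cells, with 3.20 and 4.70 CPM in free RNA. The 4 classes kept this order in both libraries and did not overlap. Microglia-like cells lay below free RNA for both genes in both libraries, and so did macrophage-like cells for Cd80. T or NK cell-like cells had no Cd40 UMI among 137 and 96 cells, where 3 UMIs, the limit set for a count of 0, would be 6.69 and 7.04 CPM and 2.19% and 3.13% of the cells.

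Cd86, Cd83 and Icosl had a different distribution, with microglia-like and dendritic cell-like cells both high and macrophage-like cells low. Cd86 stood at 145 and 206 CPM in microglia-like, 147 and 147 in dendritic cell-like, 106 and 145 in monocyte-like and 26.7 and 67.6 in macrophage-like cells (free RNA 62.9 and 126). Microglia-like cells overlapped dendritic cell-like cells, monocyte-like cells lay below dendritic cell-like cells in both libraries, and macrophage-like cells lay below all 3. Cd83 stood at 575 and 559 CPM in microglia-like, 430 and 425 in dendritic cell-like, 184 and 87.3 in monocyte-like and 92.8 and 143 in macrophage-like cells (free RNA 335 and 477). Microglia-like cells were above the other 3 in both libraries, and monocyte-like and macrophage-like cells overlapped. Icosl stood at 24.1 and 29.6 CPM in microglia-like, 20.01 and 28.9 in dendritic cell-like, 13.3 and 8.35 in monocyte-like and 4.57 and 7.74 in macrophage-like cells (free RNA 11.8 and 21.0). Microglia-like and dendritic cell-like cells overlapped, and macrophage-like cells were lowest of the 4 in both libraries. For Cd86, Cd83 and Icosl the macrophage-like level was below that of free RNA in both libraries. How much of it came from leaked transcripts was not tested.

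Cd274 was high in monocyte-like cells, and Pdcd1lg2 had few UMIs in every class. Cd274 stood at 50.5 and 59.4 CPM in monocyte-like, 34.1 and 40.6 in dendritic cell-like, 24.9 and 15.4 in microglia-like, 20.1 and 30.5 in T or NK cell-like and 13.5 and 24.0 in macrophage-like cells (free RNA 21.4 and 21.0). Monocyte-like cells were highest in both libraries, dendritic cell-like cells came next, and the last 3 classes overlapped. Pdcd1lg2 stood at 2.35 CPM in dendritic cell-like cells of replicate 1, from 2 UMIs (exact Poisson 95% interval 0.285 to 8.50), and at 13.9 CPM in replicate 2, from 25 UMIs (8.99 to 20.5). It stood at 2.53 and 5.46 CPM in monocyte-like, 0.966 and 1.89 in macrophage-like and 0.770 and 0.571 in microglia-like cells (free RNA 0.999 and 1.81). T or NK cell-like cells had 3 and 3 UMIs, or 6.69 and 7.04 CPM. The dendritic cell-like values differed between libraries, and their range took in that of monocyte-like cells.

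Lag3, known from lymphocytes, was highest in microglia-like cells. It stood at 207 and 344 CPM there, 103 and 115 in T or NK cell-like, 55.3 and 42.8 in dendritic cell-like, 55.6 and 23.4 in monocyte-like and 7.95 and 18.3 in macrophage-like cells, against 98.3 and 232 CPM in free RNA. Microglia-like cells were above every other named class in both libraries, and macrophage-like cells were lowest of the 5 classes given. Macrophage-like, monocyte-like and dendritic cell-like cells all lay below free RNA in both libraries. The T or NK cell-like level was close to that of free RNA in replicate 1 and below it in replicate 2, and the 11 microglia markers, all detected in this class, summed to 25933 and 13196 CPM there against 49922 and 63190 in microglia-like cells. The part of these transcripts in its Lag3 level was not tested. After each cell was thinned to 1000 UMIs, 21.0% and 29.6% of microglia-like cells (medians 3613 and 5161 UMIs) had a Lag3 UMI, against 0.916% and 1.69% of macrophage-like cells (medians 6469 and 8719 UMIs). Without thinning the shares were 49.2% and 76.3% against 4.51% and 9.44%.

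**Figure D1:**
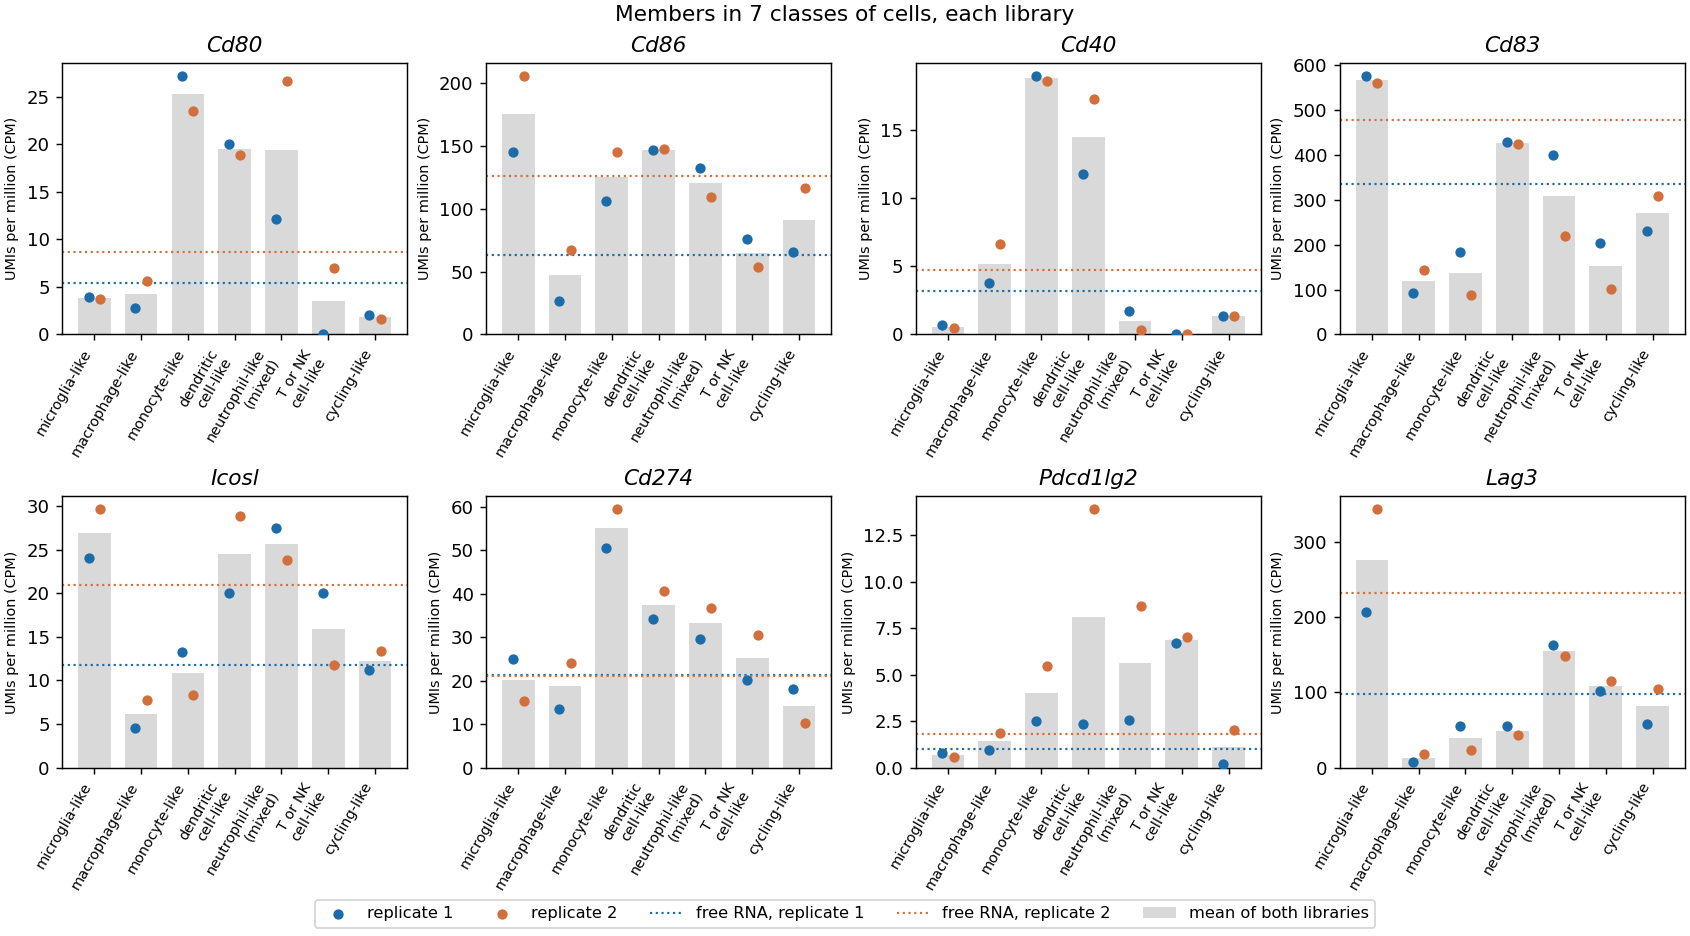
Level of each of the 8 genes (CPM, linear axis from 0) in 7 classes of cells, with points for the 2 libraries, bars for their mean and dotted lines for free RNA in each library. By the mean of both libraries, Lag3 and Cd83 are highest in microglia-like cells and Cd40 and Cd80 in monocyte-like cells, although in replicate 2 Cd80 is higher in neutrophil-like cells. The neutrophil-like class also carries microglia transcripts.

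The first comparison set macrophage-like cells against microglia-like cells. Macrophage-like cells had less Lag3, Cd83, Icosl and Cd86 and more Cd40. By edgeR's quasi-likelihood test over 11006 genes, with both libraries as blocks and 6 residual degrees of freedom, 1 of the 8 genes was higher and 4 were lower, where 45.7% of all genes tested were called (23.1% higher and 22.7% lower). Classes were built from expression, and among genes that took no part in clustering, as the 8 did not, 44% were called. Lag3 was 17.5-fold lower (log2 fold change −4.13 ± 0.39 SE, adjusted p = 3.3e-06), and Cd40, the receptor for T cell help, was 10.7-fold higher (3.42 ± 0.39, adjusted p = 2.1e-05). Cd83 was 3.78-fold lower (−1.92 ± 0.32, adjusted p = 0.000307), Icosl 3.65-fold lower (−1.87 ± 0.21, adjusted p = 1.54e-05) and Cd86 3.12-fold lower (−1.64 ± 0.28, adjusted p = 0.000396). Each of the 5 had 1 sign in both libraries. The difference was not called for Cd80 (0.33, 95% interval −0.40 to 1.06), Cd274 (0.16, −0.47 to 0.79) and Pdcd1lg2 (1.40, 0.16 to 2.63, adjusted p = 0.0612). The macrophage-like class was made up differently in each library. Its cluster led by Arg1 had 1145 and 383 cells, and that led by Fabp4 and Gpnmb had 1312 and 19. A refit without the cluster led by Fabp4 and Gpnmb, chosen after the data had been seen, called 4772 of all genes tested against 5032. The part of the rest of this mix in the differences was not tested. The signs of the Cd80 and Cd274 differences were negative without normalization factors, which shifted the median of all genes by −0.36. The median of the 8 genes was −0.74, beside 0.0065 over all genes tested.

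Genes of related pathways are given by their counts, beside the 45.7% of all genes called in the same comparison. Of 18 genes of CD40 and NF-kB signalling, through which CD40 acts, 1 was higher and 11 were lower in macrophage-like cells, with Traf1, a signalling adaptor, at 1.85, the NF-kB inhibitor gene Nfkbia at −1.41 and Traf5 at −1.68 (log2). Of 9 tested genes of other inhibitory molecules, 3 were higher and 6 were lower. Among them Cd200, whose product restrains myeloid cells, had 83 and 26 UMIs in macrophage-like against 4 and 2 in microglia-like cells, and Pdcd1, which encodes PD-1 itself, had 1 and 1 against 145 and 310. These raw counts come from unlike totals, 31073553 and 5300162 UMIs in macrophage-like against 27274332 and 31518801 in microglia-like cells. Of 12 genes of interferon gamma signalling and PD-L1 control, none was higher and 6 were lower, including Socs3 at −2.03 and Cmtm6, which protects PD-L1 from breakdown, at −1.98, and this share is near that of all genes. Of 10 MHC class II genes, 5 were higher and 3 lower. These lists describe neighbouring pathways, and their medians of −0.72, −1.29, −0.50 and 1.15 stand beside 0.0065 over all genes.

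Monocyte-like cells, of the kind that gives rise to macrophages, had more of most of these molecules than macrophage-like cells. Of the 8 genes, 5 were higher and none was lower, where 19.7% of all genes were called (11.6% higher and 8.06% lower, and 17.2% of those outside the clustering genes). Cd80 was 6.30-fold higher (log2 fold change 2.66 ± 0.37, adjusted p = 0.00032), Cd40 3.76-fold (1.91 ± 0.36, adjusted p = 0.00322), Cd274 3.04-fold (1.61 ± 0.32, adjusted p = 0.0038) and Cd86 2.79-fold (1.48 ± 0.29, adjusted p = 0.00359). Lag3 was 3.06-fold higher (1.62 ± 0.39, adjusted p = 0.0123), but by 2.55 in replicate 1 and 0.49 in replicate 2, and both classes lay below free RNA. The summed microglia markers were 14294 and 6885 CPM in monocyte-like cells and 5246 and 6894 CPM in macrophage-like cells, so they were higher in the library where Lag3 was higher, and their part in it was not tested. Cd83 (0.09, 95% interval −0.60 to 0.78), Icosl (0.79, 0.15 to 1.43) and Pdcd1lg2 (1.41, −0.04 to 2.87) were not called. Of the interferon gamma and PD-L1 list, 7 of 12 were higher and none lower, among them the kinase gene Jak2 at 1.96, the signalling inhibitor gene Socs1 at 1.95 and the transcription factor gene Irf1 at 1.90 (median of the list 0.80, beside −0.03 over all genes). Of the CD40 and NF-kB list, 12 of 18 were higher and none lower, with Traf1 at 2.76 and a median of 0.84.

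The monocyte-like values depended on how that class was drawn. With Leiden resolution 0.4 the class had 1547 and 841 cells, was led by Arg1, and 3 of the 8 genes were called, without Cd40 (0.64) and Lag3 (0.76). With the stricter cell filter the name went to another cluster, led by Ear2 and Ace, in which Cd40 was lower (−1.50) and not called.

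Dendritic cell-like cells, the reference for T cell stimulation, exceeded macrophage-like cells in nearly all of these molecules. Of the 8 genes, 7 were higher and none lower, where 22.2% of all genes were called (12.2% higher and 10% lower, and 19.6% of those outside the clustering genes). Pdcd1lg2 was 4.98-fold higher (log2 fold change 2.32 ± 0.65, adjusted p = 0.0213), Cd80 4.23-fold (2.08 ± 0.43, adjusted p = 0.00359), Icosl 3.78-fold (1.92 ± 0.28, adjusted p = 0.000354) and Lag3 3.42-fold (1.77 ± 0.41, adjusted p = 0.0067), with both classes below free RNA for Lag3. Cd83 was 3.13-fold higher (1.64 ± 0.32), Cd86 2.90-fold (1.54 ± 0.30) and Cd40 2.67-fold (1.42 ± 0.41, adjusted p = 0.0264). The Pdcd1lg2 difference was 0.81 in replicate 1, where it had 2 UMIs, and 2.66 in replicate 2. Cd274 was not called (0.88, 95% interval 0.11 to 1.65, adjusted p = 0.0963). Of 10 MHC class II genes, which present the antigen, 9 were higher and 1 lower, and of 18 genes of the CD40 and NF-kB list 14 were higher and none lower, with Traf1 at 3.73 and the kinase gene Map3k14 at 2.49. The medians of these lists were 4.60 and 1.48, beside −0.03 over all genes.

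The Lag3 call of the dendritic cell-like class was lost when some of its cells were left out. All 11 microglia markers were detected in the class, at 23059 and 17521 CPM, and when it was divided further, 2 of 9 sub-clusters were led by macrophage or microglia genes, one of them with Lag3 among its leading genes. Without these sub-clusters the Lag3 difference from macrophage-like cells fell to 0.31 (adjusted p = 0.761) and that of Cd274 rose to 1.43 (adjusted p = 0.0201). This alternative was chosen after the data had been seen, and leaving out a sub-cluster rich in Lag3 had to lower Lag3. The sub-clusters kept were mixed as well. Their microglia markers summed to 6942 to 31618 CPM, against 11921 and 34963 in those left out. The part of such transcripts in the Lag3 call was not tested.

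Against microglia-like cells, dendritic cell-like cells were higher in Cd40, Pdcd1lg2, Cd80 and Cd274 and lower in Lag3, while Cd86, Cd83 and Icosl were not called. These are 4 genes higher and 1 lower of 8, where 26.5% of all genes were called (14.5% higher and 12% lower, and 23.7% of those outside the clustering genes). This comparison shares its cells with those against macrophage-like cells. Cd40 was 28.5-fold higher (log2 fold change 4.83 ± 0.48, adjusted p = 1.82e-05), Pdcd1lg2 13.1-fold (3.71 ± 0.66, adjusted p = 0.0013), Cd80 5.33-fold (2.41 ± 0.41, adjusted p = 0.000924) and Cd274 2.06-fold (1.04 ± 0.35, adjusted p = 0.0419). The Pdcd1lg2 difference was 1.40 in replicate 1 and 4.28 in replicate 2. Lag3 was 5.13-fold lower (−2.36 ± 0.38, adjusted p = 0.000669). The differences of the uncalled genes had 95% intervals of −0.72 to 0.51 for Cd86, −0.94 to 0.40 for Cd83 and −0.48 to 0.58 for Icosl. The call of Cd274 was lost with no replicate block (adjusted p = 0.05002), without normalization factors (0.0713), with doublets kept (0.0633) and without a sub-cluster led by Ccr7 (0.140).

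T or NK cell-like cells, which carry the receptors for these ligands, had less Cd83, Cd86 and Lag3 than microglia-like cells. Of the 8 genes, 3 were lower and none higher, where 17.7% of all genes were called (9.49% higher and 8.2% lower, and 14.8% of those outside the clustering genes). Cd83 was 3.91-fold lower (log2 fold change −1.97 ± 0.35, adjusted p = 0.00162), Cd86 2.70-fold (−1.43 ± 0.34, adjusted p = 0.0103) and Lag3 2.56-fold (−1.35 ± 0.39, adjusted p = 0.027). The Lag3 call was lost without normalization factors (adjusted p = 0.0574). Pdcd1lg2, with 3 and 3 UMIs in T or NK cell-like cells, was not called (adjusted p = 0.0596) but was called by DESeq2 (0.00371). All 11 tested genes of a list of T cell surface molecules, only some of them partners of the 8, were higher. Among them were Ctla4, the inhibitory receptor of CD80 and CD86, with 26 and 31 UMIs against none in microglia-like cells, and Cd40lg, the ligand of CD40, with 7 and 25 UMIs against none.

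**Figure D2:**
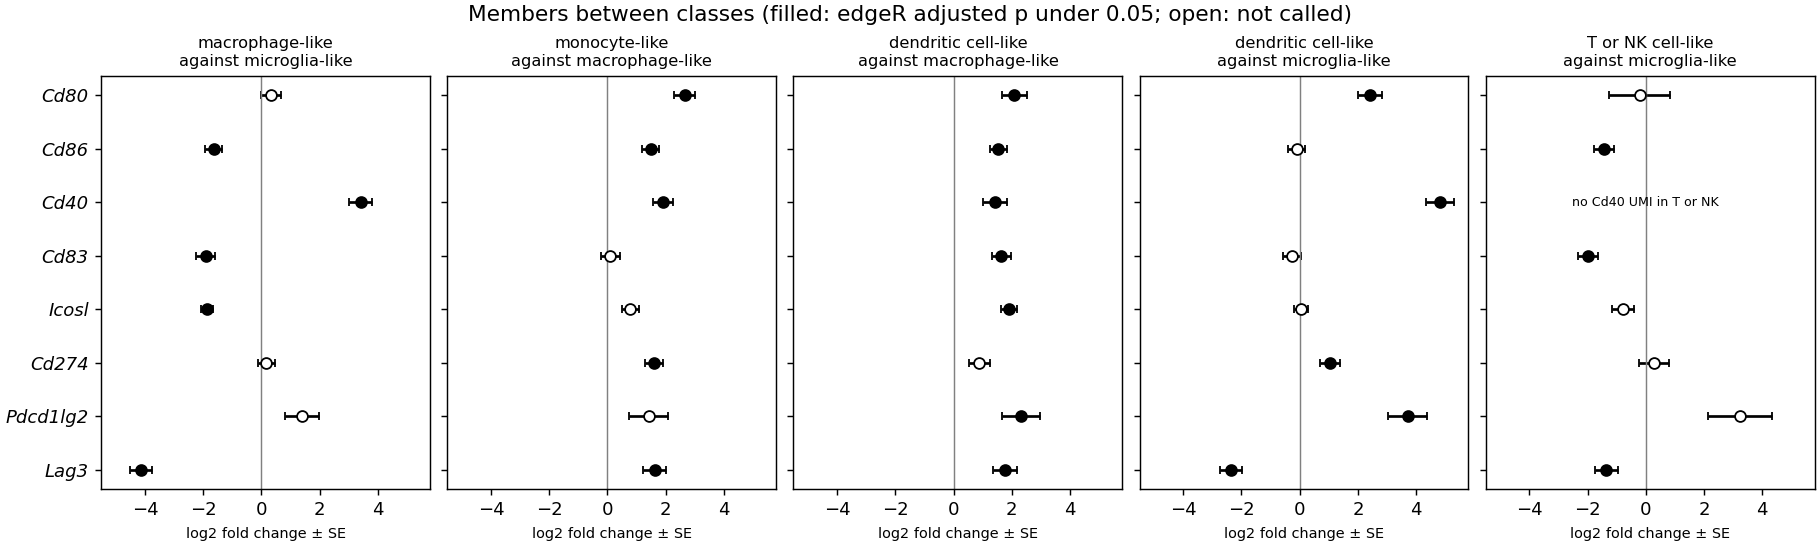
Log2 fold change of each gene (± SE) in 5 comparisons between classes, with filled points where the edgeR adjusted p is under 0.05. Cd40 lies at 3.42 in macrophage-like and 4.83 in dendritic cell-like against microglia-like cells, and Lag3 lies at −4.13 and −2.36 in the same comparisons.

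Within microglia-like cells, Cd83 ran from 99.5 to 1110 CPM and Cd274 from 6.48 to 66.0 CPM over clusters and libraries, and Cd86 from 96.6 to 241 CPM. The 7 clusters, each with at least 100 cells per library, were compared with the mean of the others (edgeR, 6 residual degrees of freedom), and 7 of the 8 genes passed the filter on low counts, all but Pdcd1lg2. The 8 genes were kept out of clustering but genes that vary with them were not, so these calls describe the clusters and are no independent evidence. In cluster 0, led by the cytokine genes Tnf and Il1a and by Cd83, Cd83 stood at 930 and 1110 CPM and was 1.57 higher on the log2 scale (± 0.07). There Cd274 was 1.09 higher and Icosl 0.49 higher, so that 3 of 7 were called, where 19.9% of all genes were (12.6% higher and 7.35% lower). In cluster 1, led by the microglia gene P2ry12, Cd83 stood at 119 and 99.5 CPM and was 2.70 lower (± 0.10), Cd274 was 1.39 lower, and Lag3, at 377 and 442 CPM, was 0.35 higher (29% of all genes called, 13.9% higher and 15.1% lower). Clusters 0 and 1 did not overlap in Cd83 or Cd274, and Lag3 ran the other way.

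Cluster 14, led by the interferon-induced genes Ifit3 and Ifit2, had Cd274 at 66.0 and 46.6 CPM, above the 6.48 to 33.7 CPM of every other microglia-like cluster in either library. The difference was 2.18 ± 0.17 on the log2 scale (adjusted p = 1.85e-11). Cd40 was 4.71 higher (± 0.86, adjusted p = 0.000205), from 9 and 3 UMIs. It stood at 9.28 and 2.64 CPM, in replicate 2 below free RNA. Cluster 9 had no Cd40 UMI in either library, so the size of the Cd40 difference is uncertain. Cd83, Icosl and Cd86 were 0.57, 0.61 and 0.28 higher. Thus 5 of 7 genes were higher and none lower, where 9.33% of all genes were called (7.35% higher and 1.97% lower). The Icosl and Cd86 calls were lost without normalization factors (edgeR adjusted p = 0.0877 and 0.186) and with no replicate block (0.148 and 0.422), which left 3 of 7.

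In cluster 4, led by Ch25h, Ctla2a and Cd72, several molecules were lower together. Lag3 stood at 86.8 and 112 CPM, below the 224 to 442 CPM of the other microglia-like clusters, and was 1.46 lower (± 0.08, adjusted p = 1.95e-16). Cd80 was 1.64 lower, Icosl 1.09 and Cd86 0.64, while Cd274 was 0.65 and Cd83 0.29 higher, so that 4 were lower and 2 higher of 7 (52% of all genes called, 28.2% higher and 23.7% lower). The summed microglia markers were lowest here too, at 28166 and 30292 CPM against 44953 to 89098 in the other microglia-like clusters, and their part in the difference was not tested. The Cd83 difference was −0.0020 without normalization factors.

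Clusters 6 and 9 differed from the mean of the others in Cd274, Cd83 and Lag3, and cluster 3 in none of the 7 genes. In cluster 6, led by the immediate early gene Egr1, Cd83 was 0.75 higher, Lag3 0.19 higher and Cd274 1.28 lower (23.8% of all genes called, 11.6% higher and 12.2% lower). In cluster 9, led by the heat shock genes Hspa1a and Hspa1b, Lag3 was 0.50 higher, Cd83 0.32 lower and Cd274 1.51 lower (8.94% of all genes called, 3.77% higher and 5.17% lower). In cluster 3, none of the 7 was called, where 1.06% of all genes were (0.977% higher and 0.0822% lower). Its leading genes, Hk2, Hspa1b and Lag3, were ranked against all other cells, not only microglia-like ones. Lag3 stood there at 254 and 383 CPM, below clusters 1 and 9 in both libraries. With no replicate block, 14 calls were made over the 7 clusters against 23. The calls lost were all 3 in cluster 9, Icosl in cluster 0, Lag3 in clusters 1 and 6, Cd83 in cluster 4, and Icosl and Cd86 in cluster 14. The Cd83 call in cluster 9 was also lost without normalization factors (edgeR adjusted p = 0.119).

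**Figure D3:**
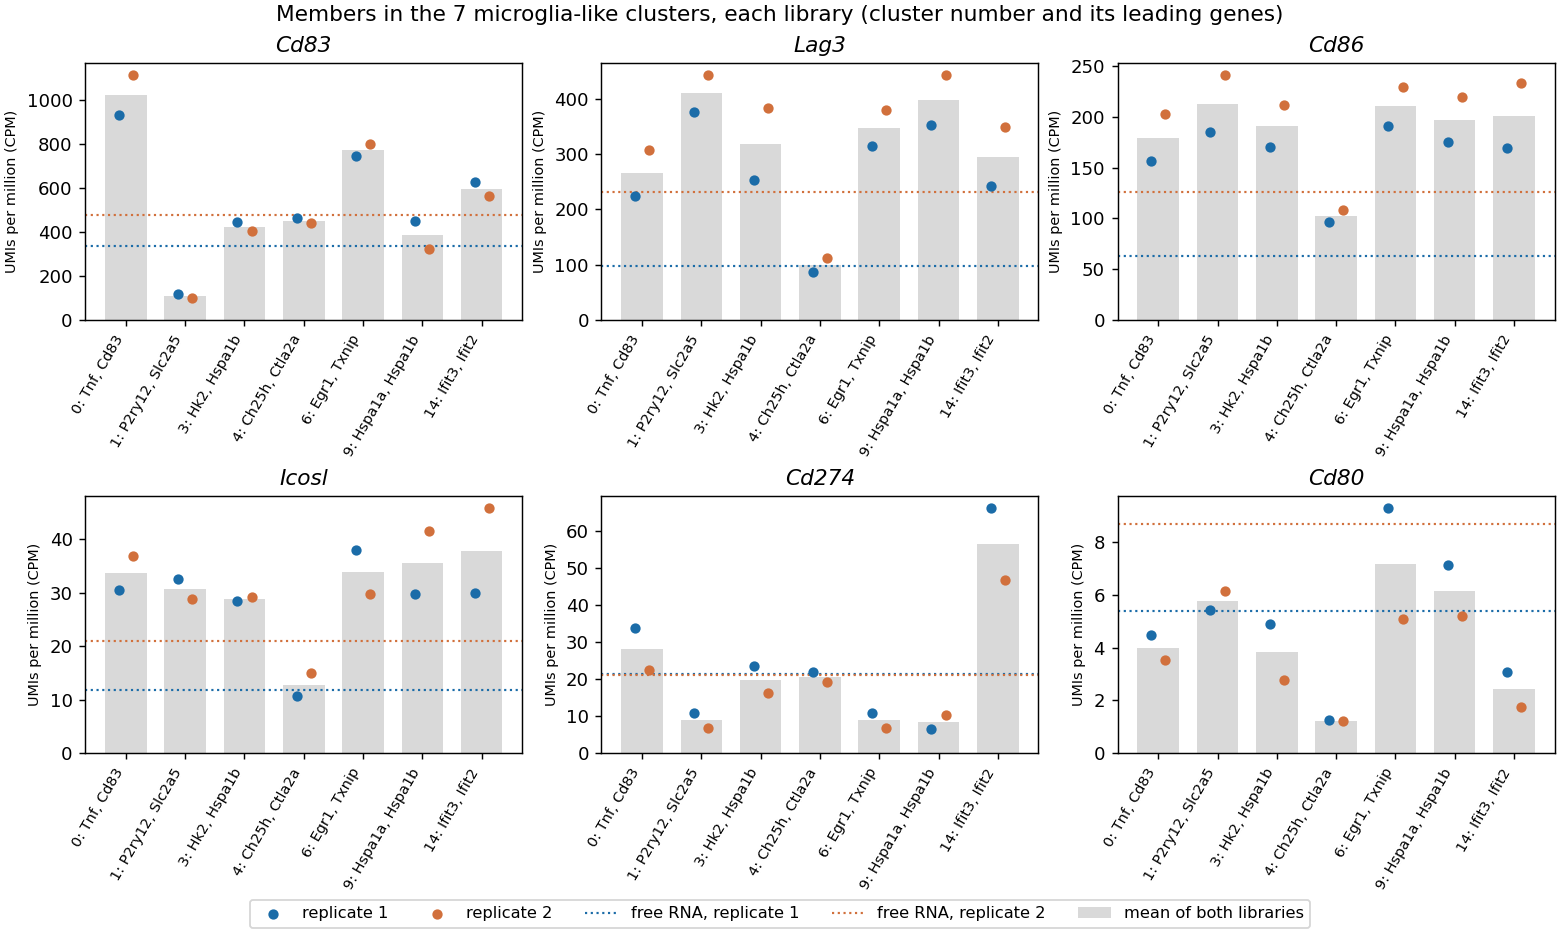
CPM of 6 of the genes in the 7 microglia-like clusters (linear axis from 0), with points for each library, bars for their mean and dotted lines for free RNA. Cd83 is highest in cluster 0 and lowest in cluster 1, Cd274 is highest in cluster 14, and Lag3 is lowest in cluster 4.

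Macrophage-like cells were compared between clusters 5 and 2 alone, since cluster 7, led by Fabp4 and Gpnmb, had 19 cells in replicate 2. Cluster 5, led by the arginase gene Arg1, had Cd274 at 29.5 and 33.3 CPM against 10.4 and 7.32 in cluster 2, led by Ms4a7 (log2 difference 1.46 ± 0.21, adjusted p = 0.000179). Cd83 ran the other way, at 65.4 and 93.6 against 151 and 233 CPM (−1.46 ± 0.11, adjusted p = 1.01e-06). The groups did not overlap for either gene, and 1 of 7 genes was higher and 1 lower, where 23.3% of all genes were called (12.3% higher and 11% lower). This fit had 1 residual degree of freedom.

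A small group of dendritic cell-like cells held much of the PD-1 ligands, Cd80 and Cd40. One sub-cluster, with 8 and 9 cells, was led by Ccr7, the receptor that guides dendritic cells to lymph nodes, and by other genes of mature dendritic cells, Fscn1, Cacnb3, Nudt17 and Socs2. Cd80 stood at 150 and 153 CPM in it against 15.8 and 12.8 in the other dendritic cell-like cells, Cd274 at 224 and 229 against 27.9 and 32.0, and Cd83 at 1047 and 1195 against 409 and 389. Cd40 stood at 112 and 89.0 CPM, from 3 and 7 UMIs, against 8.51 and 13.9. Pdcd1lg2 had 1 and 11 UMIs in it and 1 and 14 in the others. The exact Poisson 95% intervals of Cd80, Cd40, Cd83 and Cd274 did not overlap between these groups in either library, whereas those of Cd86, Icosl and Lag3 overlapped in both and those of Pdcd1lg2 in replicate 1. These intervals cover counting error only, and the sub-cluster was picked for Ccr7 after its genes had been seen, so the values are a description. The microglia markers summed to 31618 CPM in it, and their part in these levels was not tested.

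The sub-cluster held 4.94% and 5.66% of dendritic cell-like cells, yet 50% and 44% of their Pdcd1lg2 UMIs (1 of 2 and 11 of 25). It also held 23.5% and 35.3% of their Cd80 UMIs, 30% and 22.6% of their Cd40 UMIs and 20.7% and 24.7% of their Cd274 UMIs. Its share of Cd86 UMIs was 3.2% and 3.77%. Without it, the edgeR difference from macrophage-like cells was no longer called for Cd40 (1.16, adjusted p = 0.0864) and Pdcd1lg2 (1.67, adjusted p = 0.134). The remaining 5 calls of the 8 genes, for Cd80, Cd83, Cd86, Icosl and Lag3, were kept. Leaving out cells rich in Cd40 and Pdcd1lg2 had to lower these genes, and a lost call does not show equal levels.

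**Figure D4:**
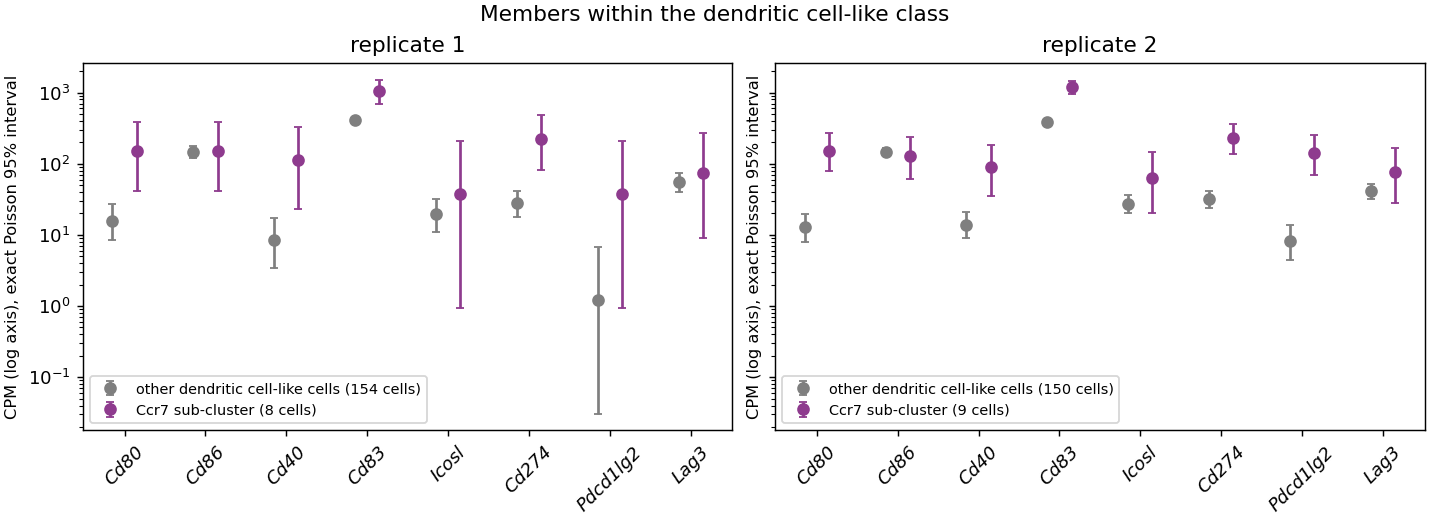
CPM of each gene (log axis) in the Ccr7 sub-cluster and in the other dendritic cell-like cells of each library, with exact Poisson 95% intervals. The intervals of Cd80, Cd40, Cd83 and Cd274 are apart in both libraries, and those of Cd86, Icosl and Lag3 overlap.

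In single cells the 8 transcripts were counted together. After thinning to 1000 UMIs, 60.05% and 61.9% of microglia-like cells had a UMI of at least 1 of the 8 genes, against 15.3% and 23.9% of macrophage-like and 45.1% and 45.9% of dendritic cell-like cells. Of microglia-like cells with a Cd274 UMI, 85.9% and 81.4% also had a Cd83 UMI, where 67.4% and 62.0% of all microglia-like cells had one. Cells with both were deeper, with medians of 6545 and 9151.5 UMIs against 3613 and 5161 in the class. In dendritic cell-like cells of replicate 2, 8 of the 16 cells with Pdcd1lg2 also had Cd274, which 36 of all 159 cells had. The part of depth in these shares was not tested.

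Across the 17 clusters with at least 50 cells in each library, the genes fell into patterns. Cd86 ran with Icosl (Pearson's r = 0.88 of log2(CPM + 10), averaged over both libraries), with Lag3 (0.82) and with Cd83 (0.79), and Cd274 ran with Pdcd1lg2 (0.70). For Cd40 and Lag3 r was −0.65, with −0.43 in replicate 1 and −0.79 in replicate 2. Cd40 and Pdcd1lg2 are low in every cluster, which limits their values of r. These points share libraries and free RNA, so r is a description. Among 4870 other genes that reached 50 CPM in a cluster, those most like Lag3 were Crybb1, Capn3 and Siglech (r = 0.99 each), and those most like Cd86 were Havcr2, which encodes the inhibitory receptor TIM-3 (0.98), Capza2 (0.96) and Sowahc (0.95). Cd83 was most like the chemokine genes Ccl3 (0.93) and Ccl4 (0.90) and the cytokine gene Il1a (0.89), and Icosl was most like Skil (0.97), Sipa1 (0.94) and Smad7 (0.94), of which Skil and Smad7 encode inhibitors of TGF-beta signalling. Cd274 was most like Slfn2 (0.90), Msn (0.88) and Cd244 (0.87), and Cd80 like Fem1c (0.92), Ccr1 (0.86) and Mcemp1 (0.86). Cd40 and Pdcd1lg2 stayed under 25 CPM in every cluster and were not matched.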

How the data were processed

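The deposited values are raw counts of UMIs per gene and barcode, 1 matrix per library, made by the authors with Cell Ranger 4.0.0 and STAR 2.5.1b, and Seurat 4 is also named, per the submitters' processing notes. The role of each genome build they name is not stated. Cells with at least 1000 UMIs, 500 genes and at most 10% mitochondrial UMIs were kept, likely doublets were removed, and cells were clustered with scanpy 1.11.5 (2000 variable genes without the 8 genes, 30 components, 15 neighbours, Leiden resolution 0.8). Clusters were named by markers under a rule written with results known. Counts were summed per class and library and tested with edgeR 4.0.16 (quasi-likelihood, TMM, library as block, Benjamini-Hochberg adjustment, threshold 0.05), which was tested on simulated data. Each class is compared within the same libraries, so the block pairs cells that share a library. DESeq2 1.42.0 was an alternative. The 8 genes and the lists were chosen with earlier results of these data known. From each list the called genes with the largest log2 fold change were named, at most 3 in each direction. Border-associated macrophage-like cells, 15 in replicate 2, and unnamed cells entered no test. Intervals and limits cover counting error only.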

Additional observations from a re-analysis of the deposited data

Results flagged for a closer look

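Cd274 was higher in a cluster that entered no comparison than in any named class. Cluster 19, led by Ear2, Ace and Itgal, had 83 and 76 cells and stayed unnamed under the naming rule. Cd274 stood there at 94.5 CPM in replicate 1, from 30 UMIs, and at 73.1 CPM in replicate 2, from 32 UMIs, a mean of 83.8 CPM. The highest named class, monocyte-like cells, had 50.5 and 59.4 CPM. The exact Poisson 95% intervals of cluster 19 were 63.8 to 135 and 50.03 to 103 CPM, and the difference was not tested. Cd86 stood at 123 and 119 CPM in the same cells and Lag3 at 170 and 96.0 CPM, both below free RNA in replicate 2. The microglia markers summed to 33155 and 20670 CPM there, and their part in these levels was not tested. With the stricter cell filter, a cluster led by Ear2 was named monocyte-like.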

How the results depend on the processing

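Of the alternatives run for the counts of called genes, the cluster calls and the shares and levels of cells, 112 stayed close and 12 moved. The 112 include the level of each gene in its highest class in a single library. Such a level lies within the SD of both libraries by arithmetic, so it could not count as moved. Of those for single log2 fold changes, 442 stayed the same, 26 lost a call, 15 gained one and 15 turned in sign. Another 39 moved by more than the SE in a single library. With no replicate block, genes called between monocyte-like and macrophage-like cells numbered 1437 against 2166, and calls of the 8 genes over the microglia-like clusters 14 against 23. The same count of genes was 3626 with the stricter cell filter and 1349 with Leiden resolution 0.4, where 3 of the 8 genes were called. Thinning to 1000 UMIs lowered the share of cells with a UMI to 2.503% (Cd80), 2.05% (Cd40) and 6.47% (Cd274) of monocyte-like cells and to 17.0% (Cd86), 33.6% (Cd83), 2.99% (Icosl) and 25.3% (Lag3) of microglia-like cells.

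Some signs of single log2 fold changes turned, and the cause was not tested. Macrophage-like against microglia-like cells gave −0.037 for Cd80 and −0.18 for Cd274 without normalization factors, and −0.39 and −0.57 with Leiden 0.4. Monocyte-like against macrophage-like cells gave −1.50 for Cd40 with the stricter filter, and for Cd83 −0.90 with Leiden 0.4, −0.032 with doublets kept and −0.022 without cluster 7, the last chosen after seeing the data. Dendritic cell-like against microglia-like cells gave for Icosl −0.10 without normalization factors, −0.11 with the stricter filter, −0.044 with Leiden 0.4 and −0.040 with doublets kept. T or NK cell-like against microglia-like cells gave 0.31 for Cd40 with doublets kept. None of these was called. Without normalization factors Cd86 in microglia-like cluster 1 was 0.28 higher (edgeR adjusted p = 0.0015) and Cd83 in cluster 4 was −0.0020. Pdcd1lg2 and Cd40 rest on few UMIs, which limits what can be detected.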

Other observations

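Border-associated macrophage-like cells, which resemble the macrophages of the brain's borders, numbered 242 and 15 and entered no test. Cd40 stood at 19.1 CPM there in replicate 1 and 6.07 CPM in replicate 2, and Cd274 at 29.7 and 12.1 CPM. Cd86, at 7.42 and 6.07 CPM, and Cd83, at 19.9 and 3.03 CPM, were below free RNA in both libraries, and no Pdcd1lg2 UMI was found. Cycling-like cells, 620 and 224 in number, had Cd83 at 231 and 308 CPM, Cd86 at 65.8 and 117 CPM and Cd274 at 18.1 and 10.4 CPM.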
